A study of Mus musculus with 6 samples.

Results

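Integrins are receptors made of an alpha and a beta subunit that hold cells to the matrix around them, and laminins are matrix proteins made of an alpha, a beta and a gamma chain that several of these receptors bind. The genes of both families were taken from the table by their symbols, which gave 37 of 19078 genes, 26 integrin subunits and 11 laminin chains. RNAseq was performed on immortalized mouse fibroblasts, with 3 *Ms4a15* OE and 3 control libraries of poly(A)-selected RNA. *Ms4a15* OE cells are a pool in which a CRISPR activation system, guided to *Ms4a15*, raises the transcription of this membrane protein gene. Control cells are labelled wild type, and the methods describe them as infected with empty lentivirus. The methods give the parental line as male embryonic fibroblasts with conditional *Gpx4* alleles and Cre-ERt2, a tamoxifen-dependent recombinase, so that both groups derive from a line in which this ferroptosis regulator can be removed.

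Each gene has a single usable level in the deposited table, a mean that the authors took across the 6 libraries after dividing the reads of each library by a size factor for its depth (normalized counts). *Ms4a15* OE and control libraries are therefore mixed in every mean below, and no difference between the groups is described. The mean carries no SD and no test, and genes that lie close in level cannot be ordered beyond the spread between libraries. The means of all genes added up to 40991755 normalized counts, of which the 37 genes took 0.322%. The size factors, worked out from genes with a single read, ran from 0.887 to 1.14, the highest 1.28 times the lowest. *Ms4a15* itself had a mean of 638 normalized counts, which does not show in which libraries it was transcribed.

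The alpha subunit of an integrin sets much of what the receptor binds, and most alpha subunits pair with the beta subunit of *Itgb1*. One group of receptors recognises the RGD motif of fibronectin and vitronectin, another binds laminin, another collagen, and a further set is known from leukocytes. Laminin chains are joined inside the cell, and the alpha chain carries the main sites for cell receptors. Laminin trimers then form the sheet-like network of basement membranes, which surrounds epithelia, vessels and muscle fibres, while fibroblasts sit mostly in the looser interstitial matrix.

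Levels of different genes were compared per kb of coding sequence, since a longer transcript gives more reads. Of the 37 genes, 31 had a mean at or above 3 counts per library, the floor used here for counting error, against 75.8% of all genes. Here and below, all genes are those listed in the table, which leaves out genes without a read in any library. Means of 10 normalized counts or more were found for 26 of the 37 against 67.7% of all genes, and of 100 or more for 17 against 54.7%. All 8 beta subunits of integrins were above the floor, as were all 3 beta and all 3 gamma chains of laminin. The 6 genes under it were *Itga4*, *Itga8*, *Itga9*, *Itgad*, *Lama1* and *Lama4*, so that each was an alpha subunit or an alpha chain. Of the 37 genes, 18 are integrin alpha subunits and 5 are laminin alpha chains. By level per kb, 7 of the 37 genes lay above the 75th percentile of the genes with a coding length, namely *Itgb1*, *Itgav*, *Itga5*, *Lamc1*, *Itga3*, *Itgb5* and *Itga6*. With the longest transcript in place of the coding sequence, 11 genes did.

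**Figure D1:**
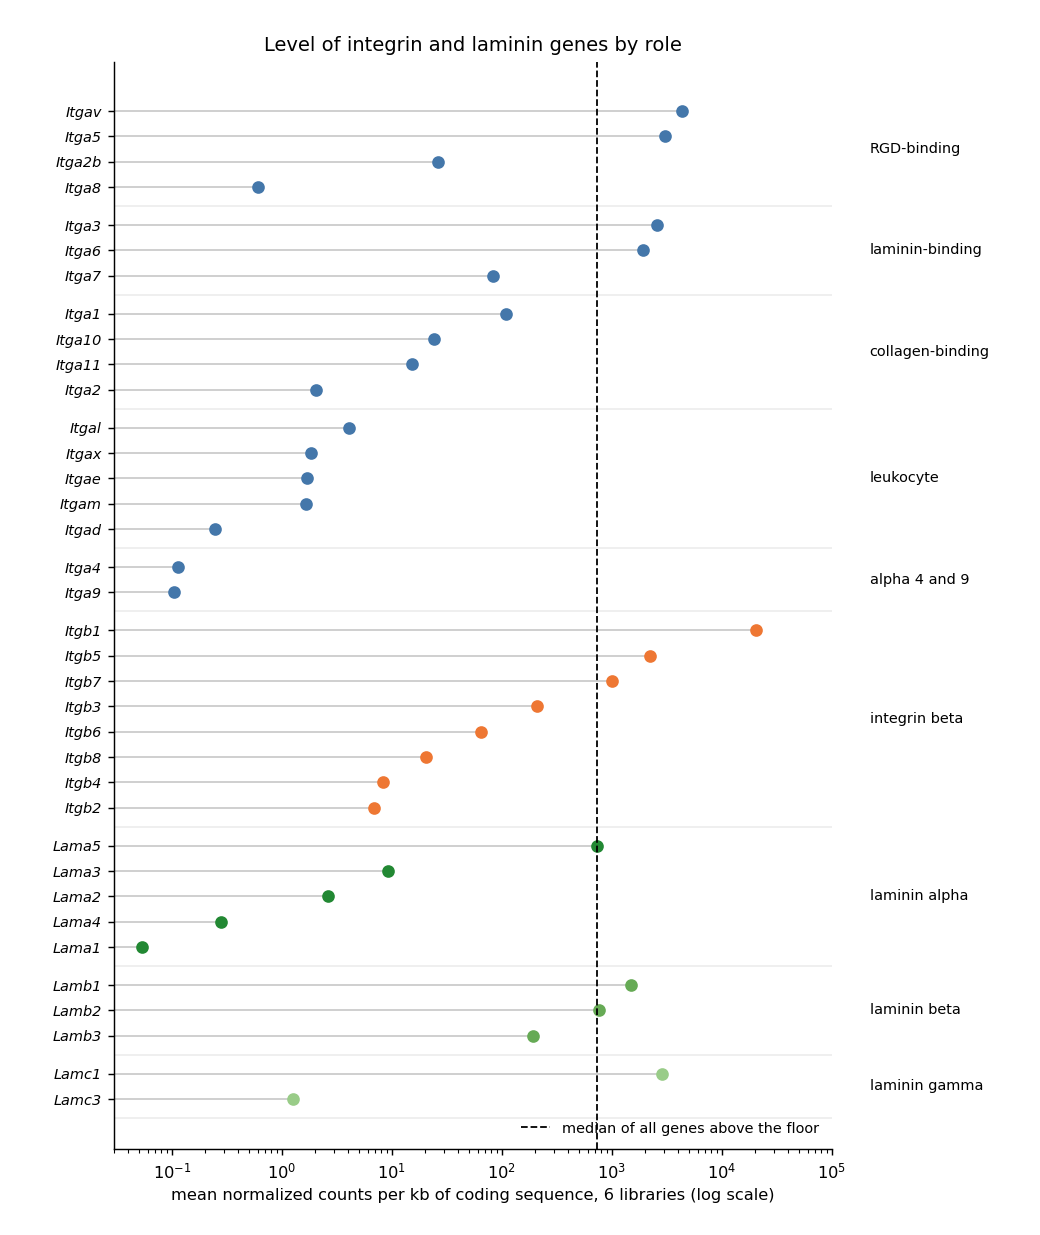
Each point is the mean normalized count per kb of coding sequence of a reported integrin or laminin gene over all 6 libraries, on a log axis, with genes grouped by role and the dashed line at the median of all genes above the floor, 727 per kb. *Itgb1* is the rightmost point at 20506 per kb, and each group of alpha subunits spreads over at least an order of magnitude except *Itga4* and *Itga9*, which are both near 0.1 per kb.

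*Itgb1*, the common partner of most alpha subunits, was the highest of the 37 genes. It lies on chromosome 8 of GRCm38 from 128685654 to 128733200 on the forward strand, with 16 exons in the transcript used for its length. Its mean of 49090 normalized counts corresponds to 20506 per kb, higher than 98.3% of genes with a coding length. It made up 56.7% of the summed level per kb of all integrin subunits and 85.3% of that of the beta subunits.

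The other beta subunits were far below it. *Itgb5*, which pairs with *Itgav* in a vitronectin receptor, had a mean of 5432 normalized counts, or 2219 per kb, so that *Itgb1* was 9.24 times as high. *Itgb7*, a subunit known from lymphocytes that home to the gut, followed at 2400 normalized counts, or 993 per kb. *Itgb3*, the partner of *Itgav* and of the platelet subunit *Itga2b*, was at 209 per kb. The subunits of receptors that release active TGF-beta, *Itgb6* and *Itgb8*, were at 64.0 and 20.3 per kb. *Itgb4*, the hemidesmosome subunit that pairs with *Itga6*, was at 8.28 per kb, and *Itgb2*, the common subunit of leukocyte integrins, was lowest at 6.90 per kb. The order of these low subunits is not firm. With the longest transcripts *Itgb8*, *Itgb4* and *Itgb2* were at 5.56, 7.28 and 5.37 per kb.

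Among the alpha subunits, those that bind RGD and those that bind laminin were high. *Itgav* had a mean of 13596 normalized counts, or 4341 per kb, and *Itga5*, the fibronectin receptor subunit, 9583 normalized counts, or 3033 per kb. The order of both genes is not firm, since with the longest transcript *Itgav* was at 0.888 of the level of *Itga5*. *Itga2b* was at 26.4 per kb, and *Itga8*, which binds nephronectin in the developing kidney, at 0.604. Of the laminin-binding subunits, *Itga3* had a mean of 8217 normalized counts, or 2565 per kb, and *Itga6* had 6220, or 1900 per kb. *Itga7*, known from skeletal muscle, was at 82.8 per kb, so that *Itga3* was 31.0 times as high and *Itga6* 22.9 times as high.

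Collagen-binding subunits were low by comparison. *Itga1* had a mean of 383 normalized counts, or 108 per kb, and made up 72.2% of the summed level per kb of the 4 collagen-binding genes. This share depends on the length used, since *Itga1* was 4.46 times as high as *Itga10* per kb but 2.07 times with the longest transcripts. *Itga10*, known from cartilage, and *Itga11*, known from fibroblasts, were at 24.3 and 15.3 per kb. *Itga2*, known from platelets and epithelia, was at 2.02 per kb. Coding genes overlap *Itga1* (*Pelo* and *Gm49395*), *Itga10* (*Gm42957*) and *Itgam* (*Gm49368*) on the same strand in the annotation, and how reads in the shared part were assigned is not given in the sources used here. The 4 genes together reached 150.0 per kb, against 4548 for the laminin-binding and 7402 for the RGD-binding subunits.

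The leukocyte subunits *Itgal*, *Itgax*, *Itgae*, *Itgam* and *Itgad* ran from 4.11 per kb for *Itgal* to 0.245 for *Itgad*, with a sum of 9.56 per kb. *Itga4* and *Itga9*, which bind fibronectin and other ligands such as VCAM1 and tenascin, were the lowest of all integrin subunits, at 0.114 and 0.104 per kb. They were also the only alpha group with no member above the floor.

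Most of the 24 known alpha and beta pairs were unevenly matched. In 19 pairs the alpha subunit was the lower of both per kb, and the same number was obtained without length correction. Each of the 12 alpha partners of *Itgb1* was below it, from *Itgav*, 4.72 times lower, to *Itga9*. Added together, these 12 partners reached 12073 per kb, so that *Itgb1* was 1.70 times their sum. The excess was 1.75 times with the longest transcripts and 1.28 times without length correction. The closest matches per kb were *Itgal* with *Itgb2*, both at a low level, where *Itgb2* was 1.68 times as high, and *Itgav* with *Itgb5*, where *Itgav* was 1.96 times as high. Their order is not firm, since with the longest transcripts the ratios were 1.89 and 1.16, and without length correction 1.08 and 2.50.

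*Itgb7* stood apart from its partners. Its alpha subunits are *Itga4* and *Itgae*, which together reached 1.81 per kb, so that *Itgb7* was 548 times their sum, and 381 times without length correction. *Itgb4* showed the opposite imbalance, at 0.00436 of the level of its partner *Itga6*, and 0.00726 without length correction. Of the 24 pairs, 19 had both subunits above the floor and 9 had both at 100 normalized counts or more. These 9 were *Itgb1* with *Itga1*, *Itga3*, *Itga5*, *Itga6*, *Itga7* and *Itgav*, and *Itgav* with *Itgb3*, *Itgb5* and *Itgb6*. The levels are of RNA, and receptors at the cell surface were not measured in these libraries.

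**Figure D2:**
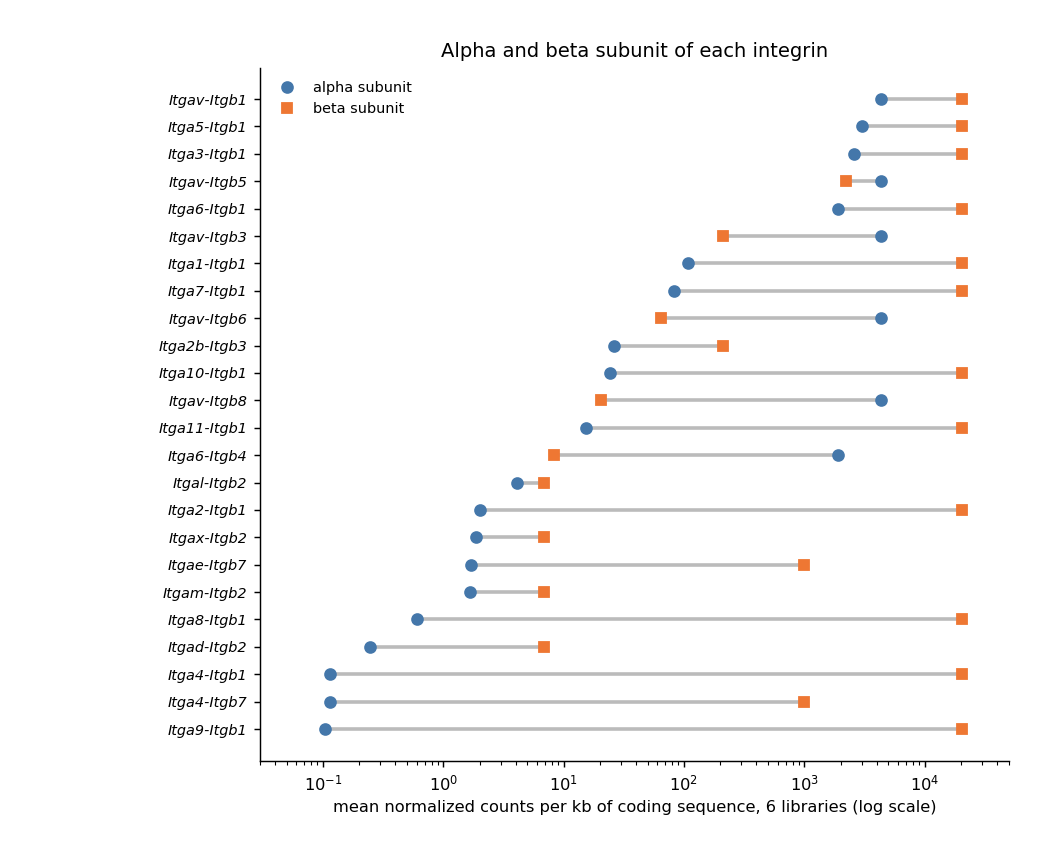
Each row is a known integrin, with the mean normalized count per kb of coding sequence of its alpha subunit (circle) and its beta subunit (square) on a log axis, sorted by the lower of both. The square of *Itgb1* lies to the right of every one of its alpha partners, and the square of *Itgb7* at 993 per kb lies far to the right of *Itgae* and *Itga4*.

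The laminin alpha chains were dominated by a single gene. *Lama5*, which forms the laminins of most adult basement membranes, lies on chromosome 2 from 180176373 to 180225859 on the reverse strand. It had a mean of 8207 normalized counts, or 736 per kb, and made up 98.4% of the summed level per kb of the alpha chains. *Lama3*, the alpha chain of the laminin that anchors the epidermis, followed at 9.12 per kb, 80.7 times lower. *Lama2*, the muscle chain, was at 2.65, *Lama4*, the vessel chain, at 0.282, and *Lama1*, the chain of the early embryo, at 0.0529 per kb.

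*Lamc1*, the gamma chain of most laminins, lies on chromosome 1 from 153218922 to 153332786 on the reverse strand and was the highest laminin gene, with 13660 normalized counts, or 2833 per kb. *Lamc3* was at 1.27 per kb. The beta chains were more evenly shared. *Lamb1*, on chromosome 12 from 31265234 to 31329644, was at 1475 per kb and *Lamb2* at 759, a ratio of 1.94. *Lamb3*, a beta chain known from the skin that joins *Lama3*, was at 191 per kb, while *Lama3* was at 9.12.

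Of the 13 known trimers compared, 8 had every chain above the floor, and 2 had every chain at 100 normalized counts or more. These 2 were *Lama5* with *Lamc1* and either *Lamb1* or *Lamb2*. The alpha chain was the lowest of the 3 chains in 12 of the 13 trimers, the exception being that of *Lama2*, *Lamb1* and *Lamc3*. Without length correction it was 10 of 13, since *Lamb1* and *Lamb2* were then the lowest chains of the *Lama5* trimers. In the trimer of *Lama5*, *Lamb1* and *Lamc1*, *Lamc1* was 3.85 times as high as *Lama5* per kb, and *Lamb1* lay between them. This order depends on length, since *Lama5* has the longest coding sequence of the 37 genes at 11154 bases, and without length correction *Lamc1* was 1.66 times as high as *Lama5* and *Lamb1* at 0.989 of it. *Lamb2* was 1.03 times as high as *Lama5* per kb but at 0.499 of it without length correction.

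**Figure D3:**
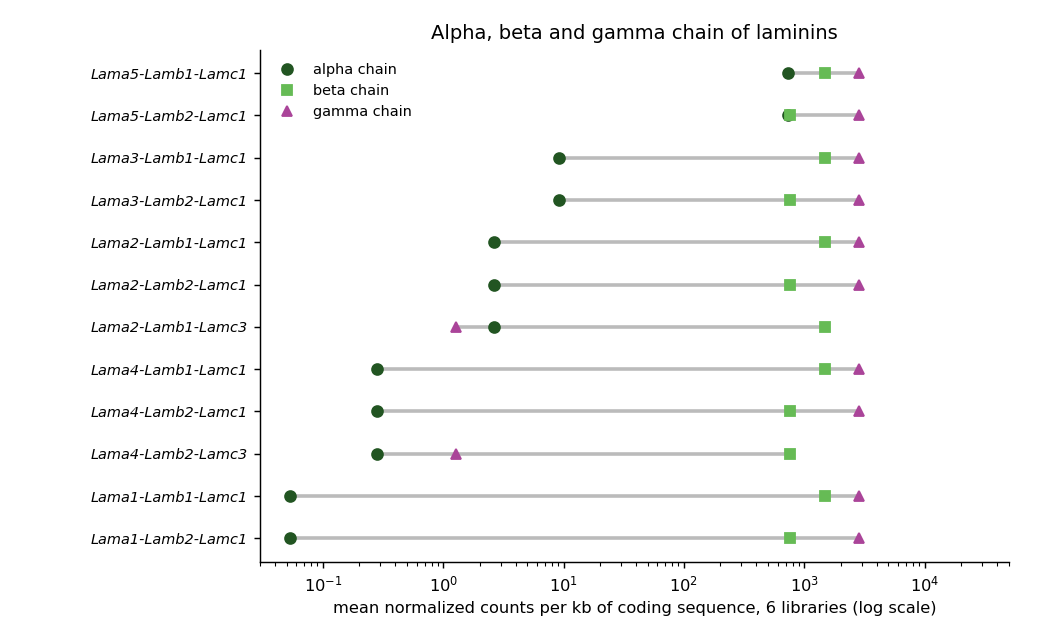
Each row is a known laminin whose chains are all reported here, with the mean normalized count per kb of coding sequence of its alpha (circle), beta (square) and gamma chain (triangle) on a log axis, sorted by the lowest chain. In the upper 2 rows all chains lie between 736 and 2833 per kb, and in all rows below them the lowest chain is at 9.12 per kb or less.

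Receptors and ligands compared differently by sum and by median. Added together, integrin subunits reached 36135 per kb and laminin chains 6206, a ratio of 5.82, which was 2.70 without length correction. The integrin sum includes subunits of receptors for other ligands than laminin, and *Itgb1* made up 56.7% of it. The median level per kb of the 22 integrin subunits above the floor was lower than that of the 9 laminin chains above it, at a ratio of 0.227. The median of all genes above the floor was 727 per kb. The alpha subunits that bind laminin reached 4548 per kb and the laminin alpha chains 748, a ratio of 6.08, which was 1.77 without length correction. These are single values per gene, and genes are not replicates, so no test was made.

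Some genes of these families lie next to each other. *Itga1* and *Itga2* are neighbours on the reverse strand of chromosome 13, *Itga2* from 114833081 to 114932100 and *Itga1* from 114953096 to 115101964, and *Itga1* was 53.6 times as high per kb, or 34.8 times with the longest transcripts. The reads of *Itga2* behind this mean ranged from 0 to 15 per library. *Itgam*, *Itgax* and *Itgad* follow each other on chromosome 7 between 128062640 and 128223816. All 3 were low, at 1.65, 1.85 and 0.245 per kb.

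The promoters of 20 of the 37 genes could be matched, as the 250 bases before a RefSeq start site on GRCm38 within 200 bases of the start of the transcript used. CpG dinucleotides mark promoters that are active in many cell types, and the 11 matched genes whose mean reached 100 normalized counts held a median of 14.0 in this stretch, against 17.0 for all such genes. Of these 11, 8 held 10 or more CpG, against 80.7% of all genes at that level. Between 10 and 100 normalized counts it was 1 of 4 matched genes, against 53.1% of all genes at that level, and under 10 it was 2 of 5, against 33.5%. The sequences of 3 genes are shown because they depart from each other in level and CpG content, and they were chosen after their values were seen. *Itgb1* (chr8:128685404-128685653, forward strand) is the highest gene and has 21 CpG, *Itgb7* (chr15:102231936-102232185, reverse strand) is a high gene with 5, and *Itga8* (chr2:12301945-12302194, reverse strand) is a nearly unread gene with 18. They are written 5′ to 3′ on the strand of the gene, with each CpG in capitals, and are credited to RefSeq on GRCm38.p6.
Itgb1: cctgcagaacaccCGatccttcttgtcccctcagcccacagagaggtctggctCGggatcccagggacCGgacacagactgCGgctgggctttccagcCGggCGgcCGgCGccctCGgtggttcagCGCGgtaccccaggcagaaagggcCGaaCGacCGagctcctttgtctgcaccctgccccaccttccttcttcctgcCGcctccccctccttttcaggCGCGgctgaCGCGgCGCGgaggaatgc
Itgb7: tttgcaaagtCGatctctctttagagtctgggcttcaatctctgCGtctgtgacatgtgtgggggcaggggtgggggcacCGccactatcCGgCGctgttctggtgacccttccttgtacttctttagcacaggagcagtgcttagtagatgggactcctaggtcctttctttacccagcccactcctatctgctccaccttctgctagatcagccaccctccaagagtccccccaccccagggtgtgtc
Itga8: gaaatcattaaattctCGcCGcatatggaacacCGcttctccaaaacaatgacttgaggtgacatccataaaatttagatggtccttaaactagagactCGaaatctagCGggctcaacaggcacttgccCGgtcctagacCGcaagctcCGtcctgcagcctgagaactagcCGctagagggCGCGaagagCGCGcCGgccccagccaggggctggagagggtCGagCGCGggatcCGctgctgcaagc
Of the 125 bases nearest the start site and the 125 farther away, the near ones held 12 CpG and the far ones 9 in *Itgb1*, and 13 and 5 in *Itga8*. All 5 CpG of *Itgb7* were in the far ones. The letters say nothing about which factors bind there.

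For the lowest genes, the mean over libraries could be resolved into whole reads. A mean over 6 libraries is a sum of reads, each divided by 6 times the size factor of its library. For each of the 11 genes with a mean under 10 normalized counts, a single set of 6 whole numbers gave the listed mean within 1e-09. The libraries recovered this way carry no name, so they are listed by rising size factor and are not tied to *Ms4a15* OE or control. The size factors were 0.887, 0.938, 0.946, 1.02, 1.11 and 1.14.

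*Itga9* had 2 reads in all, in the order given 0, 1, 0, 0, 0 and 1, and *Itga4* had 2 as well, with 0, 1, 1, 0, 0 and 0. A total of 2 reads has an exact 95% Poisson interval from 0.242 to 7.22, which covers counting error only. *Lama1* had 3 reads, with 1, 0, 0, 0, 2 and 0. For these 3 genes, 4 of the 6 libraries held no read, so that a level at this depth is no more than a trace.

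*Itgad* had 1, 3, 0, 1, 0 and 0 reads, and *Lama4* 0, 0, 2, 0, 3 and 5. *Itga8* had 5, 2, 0, 2, 2 and 0 reads. None of these 3 genes was read in more than 4 libraries.

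Among the leukocyte subunits that could be resolved, all but *Itgad* were read in every library. *Itgam* had 2, 9, 5, 7, 7 and 5 reads, *Itgae* 1, 10, 3, 12, 6 and 4, and *Itgax* 12, 9, 3, 3, 4 and 7. Their totals of 35, 36 and 38 reads have overlapping Poisson intervals, from 24.4 to 48.7 for *Itgam* and from 26.9 to 52.2 for *Itgax*. *Itgal* and *Itgb2* were above the range that could be resolved, with means of 14.8 and 15.9 normalized counts.

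*Lamc3*, a gamma chain known from the retina and brain, had 8, 13, 0, 10, 1 and 3 reads. *Itga2* had 1, 2, 13, 0, 14 and 15 reads, a total of 45 with an interval from 32.8 to 60.2. This interval covers counting error only and not the spread of its reads between libraries. Both genes had 1 library with no read.

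**Figure D4:**
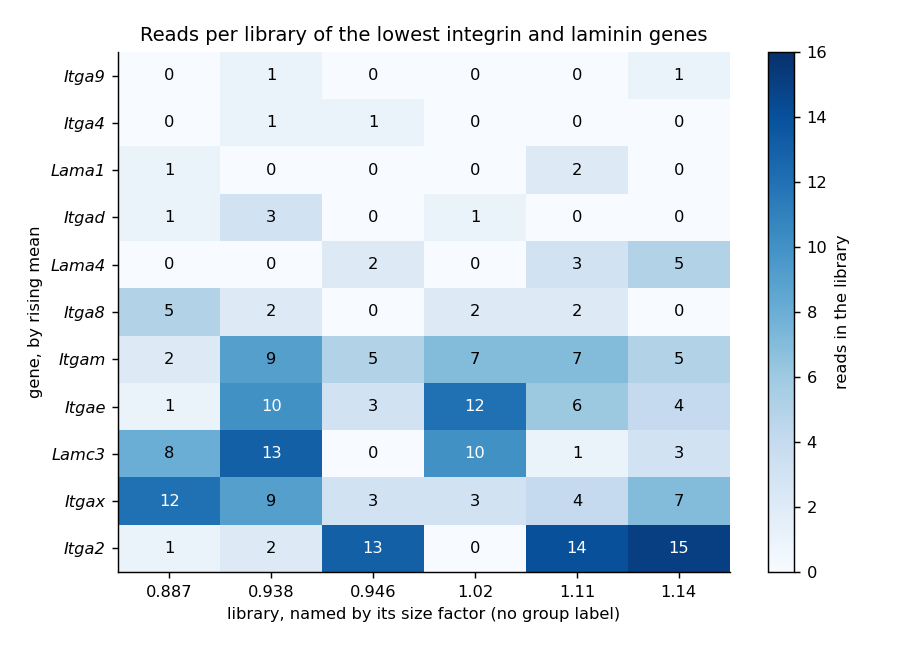
The grid gives the whole reads recovered for the 11 genes with a mean under 10 normalized counts, with genes in rows by rising mean, libraries in columns by size factor and darker blue for more reads. Columns carry no group label, and the row of *Itga2* runs from 0 to 15 reads while that of *Itgam* runs from 2 to 9.

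Other genes of adhesion were compared from lists of pathway members. Of 22 genes for the adaptors that link integrins to actin and for their signalling, 21 were found and all 21 were above the floor, which 75.8% of all genes passed, with a median of 1833 per kb. The highest was *Flna*, the actin crosslinker filamin A, at 11909 per kb, and the lowest *Parvb*, a parvin, at 6.62. Of 15 other integrin ligands 13 were above the floor, led by *Spp1*, the gene of osteopontin, at 79188 per kb. *Vtn*, the gene of vitronectin, and *Madcam1*, the ligand of the *Itga4* and *Itgb7* pair, were under the floor at 0.229 and 0.535 per kb. *Fn1*, the gene of fibronectin and named here after its value was seen, was at 15374 per kb.

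Of 6 other laminin receptors, 5 were above the floor, the highest being *Rpsa*, a ribosomal protein that also has been described as a laminin receptor, at 78905 per kb. Reads of *Rpsa* can be shared with near-identical pseudogene copies, so its level is uncertain. *Bcam*, a receptor of laminin chains encoded by *Lama5*, was under the floor at 0.0875 per kb. Of 10 other basement membrane genes, 9 were above the floor, from *Sparc* at 46337 per kb down, and *Ntn4*, a netrin that binds laminin, was under it at 0.994 per kb. The partners that tie laminin to the collagen network were unequal, which was seen only after the values were read. *Nid1* and the collagen IV genes *Col4a1* and *Col4a2* were at 1.33, 2.15 and 1.63 per kb. *Nid2* was at 23.0 and *Col4a5* at 656, whereas *Hspg2*, the gene of perlecan, was at 1672.

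**Figure D5:**
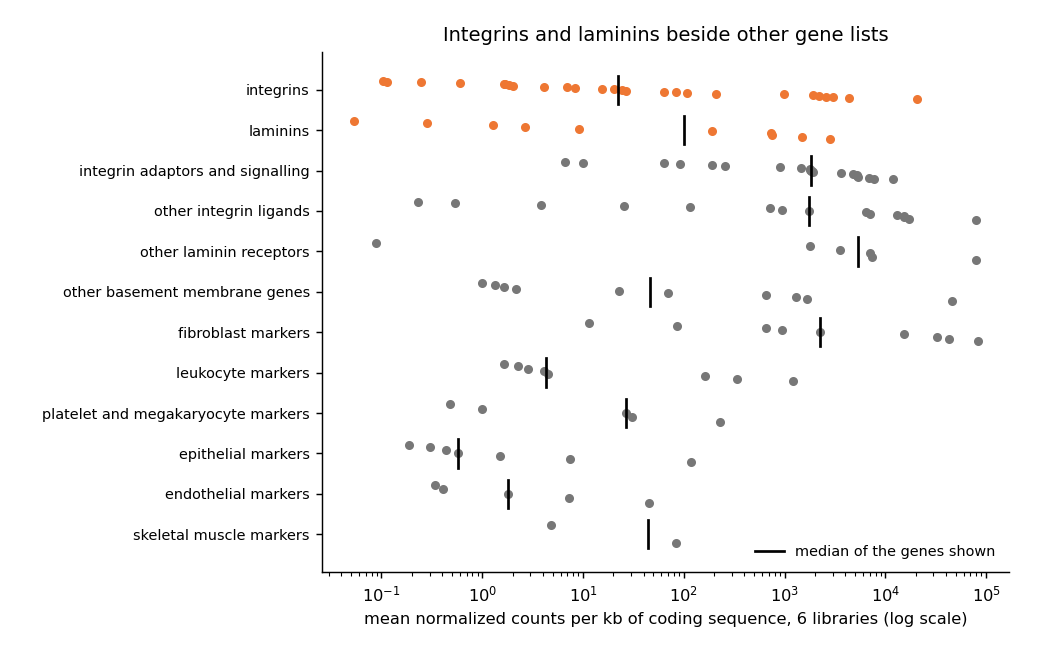
Each point is the mean normalized count per kb of coding sequence of a gene over all 6 libraries on a log axis, with integrins and laminins in orange, other lists in grey and a bar at the median of the genes shown. The integrin adaptors lie from 6.62 to 11909 per kb, while the marker lists of epithelial and endothelial cells lie mostly at the low end.

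The labelled cell type was checked against its markers, with the floor passed by 75.8% of all genes, so that a count near this share says nothing about a cell type. Of 10 fibroblast markers 9 were found and above the floor, from *Vim*, the gene of vimentin, at 82357 per kb to *Dcn*, the gene of decorin, at 11.4. Of 10 leukocyte markers, which include *Itgal* and *Itgam*, 8 were found and above the floor, the highest being *Lyz2* at 1202 per kb and the lowest *Itgam*, and their summed mean was 1120 normalized counts. Of 5 platelet markers, which include *Itga2b*, 3 were above the floor, with *Ppbp* highest at 228 per kb and *Pf4* and *Gp1ba* under it at 0.984 and 0.480.

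Epithelial markers above the floor numbered 2 of 7, with *Krt14* highest at 117 per kb. *Epcam*, *Krt5*, *Cdh1*, *Cldn4* and *Krt18* were under it, from 0.186 per kb for *Epcam* to 1.52 for *Krt18*. Endothelial markers above it numbered 3 of 5, with *Cdh5* highest at 45.3 per kb, and *Kdr* and *Tek* under it at 0.337 and 0.409. Of 5 skeletal muscle markers 2 were found, *Des* at 84.3 and *Acta1* at 4.79 per kb. Whether other cells added to the levels of the leukocyte, platelet or epithelial integrin genes was not tested, and fewer cells of a type cannot be told apart from less RNA per cell in such libraries.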

How the data were processed

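Poly(A)-selected RNA of 6 libraries, 3 *Ms4a15* OE and 3 control by their titles, was sequenced with a strand-specific kit. The labels and the methods differ on the extraction kit and the read length. Per the methods, the authors aligned reads to mm10 with STAR and the UCSC knownGene annotation, counted them with HTSeq-count and normalized them with DESeq2. The labels also name TopHat, Cufflinks and Cuffdiff. The 1 column used is a signal deposited by the authors, each gene's normalized count averaged across libraries. The 5 other columns hold the authors' comparison of the groups (log2 fold change, standard error, p-value, adjusted p-value and direction) and were not used, so no test was made.

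Levels per kb used the longest coding sequence in GENCODE M21 (GRCm38, as mm10), in place of the planned RefSeq protein length. Such a length was found for 15816 of 19078 genes (82.9%), with older symbols matched through RefSeq synonyms. The lowest means listed stand for 1 read in 1 library, so genes without a read are not listed. List genes whose symbol was not found may have had no read or be listed under another symbol. They were not analysed here. The floor of 3 counts per library equals a mean of 3.01 normalized counts. Whole reads were recovered from means under 10, a step chosen after the data were seen and tested on simulated data. It gave 1 solution for 5799 of 5799 genes under 7.5 and for 357 of 365 genes from 7.5 to 10. Read totals carry exact 95% Poisson intervals, which cover counting error only.

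Members and lists were chosen with earlier results of these data known. All 37 genes may be named, and from each other list the highest, the lowest and those at or under the floor, with exceptions stated. A gene of the 37 enters counts and sums but is not reported here by name. Promoter windows and the CpG count were chosen after the values were seen. Alternatives were another length, no length correction, other floors and other sets of genes. Python 3.11.15, numpy 2.4.6, pandas 2.3.3, scipy 1.17.1 and matplotlib 3.10.9 were used.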

Additional observations from a re-analysis of the deposited data

How the results depend on the processing

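The number of genes above the 75th percentile of level per kb was 7, became 11 with the longest transcript, and was 5 when ranked only against genes whose mean reached 10 normalized counts. Leaving genes of low level out of the ranking raises the level that marks the 75th percentile. Why the longest transcript gave more genes was not tested. The number of genes above the floor fell from 31 to 26 and 17 at means of 10 and 100 normalized counts, and was 29 when reads were asked for in all 6 libraries, an alternative chosen after seeing the data. The ratio of the integrin to the laminin median, 0.227, was 0.117 when genes under the floor were kept, which adds 4 integrin and 2 laminin genes of low level, 0.200 with the longest transcript and 0.166 without length correction. It stayed under 1 in all of these. The alpha subunit was the lower in 19 integrin pairs with and without length correction, and also with the longest transcripts. Of the 24 pairs 12 share *Itgb1*, the highest gene on each of these scales, so the pairs are not separate observations. The lowest chain with and without length correction was the same gene in 35 of 37 integrins and laminins. No paired analysis was possible because the column used is 1 mean over both groups, and the libraries recovered for low genes carry no replicate number. Leaving out a replicate was not possible for the same reason. Genes near the floor rest on few reads, and for all others the error of the mean is unknown.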

Other observations

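The reads recovered for *Itga2* fell into separate clusters over the 6 libraries, with 0, 1 and 2 reads in those with size factors 1.02, 0.887 and 0.938, and 13, 14 and 15 reads in those with 0.946, 1.11 and 1.14. *Lamc3* had 0, 1 and 3 reads in the libraries with size factors 0.946, 1.11 and 1.14, and 8, 10 and 13 in those with 0.887, 1.02 and 0.938. The 3 libraries with few *Itga2* reads were thus the 3 with more *Lamc3* reads. This split was picked after the reads were seen. *Lama4* had 0, 0 and 0 reads in the same 3 libraries and 2, 3 and 5 in the others. *Itgad* had 1, 3 and 1 against 0, 0 and 0. *Itgam*, with 2, 9 and 7 against 5, 7 and 5, did not separate this way. Neither did *Itgae*, *Itgax*, *Lama1* and *Itga8*, the last with 5, 2 and 2 against 0, 2 and 0. *Itga4* and *Itga9*, with 2 reads each, had too few reads to separate 3 libraries from 3. The 6 libraries carry no group label, so the split is not tied to *Ms4a15* OE or control, and nothing was tested across them. How many of all genes of low level separate the same way was not counted. The split can therefore not be called particular to integrins and laminins.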
